A study of Mus musculus with 2 samples.

Results

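Pax7-positive induced myogenic progenitor cells (iMPCs) that carried many transcripts of mitosis are described here: 934 cells of the 9349 kept in the iMPC library, and of 15362 kept in the series. A cell belonged to them when it held at least 1 UMI (unique molecular identifier, 1 captured RNA molecule) of Pax7, at most 1 of Myog and at most 1 of Dcn, together with at least 10 summed UMIs of Aspm, Cenpf, Nusap1, Kif23 and Cenpe. They were 31.0% of the 3009 cells that met the Pax7, Myog and Dcn limits (the Pax7 gate) and 47.6% of the 1962 iMPC cells with that many mitotic UMIs. They are called G2/M Pax7-positive cells below.

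The series profiled 2 mouse cultures with the 10x Genomics 3′ droplet assay, 1 library each. The iMPCs were derived from mouse embryonic fibroblasts by MyoD with F/R/C and grown in medium with F/R/C, abbreviations that the labels do not spell out, and the design text calls them a stable clone. The MEF library held the fibroblasts themselves, in MEF medium. Both cultures had the genotype Tg:Pax7-nGFP/C57BL6;DBA2, which carries a green fluorescent reporter for Pax7. With 1 library in each group and cells that are not replicates of a condition, no test was possible: every interval below is an exact 95% interval for counting error only.

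Pax7 is the transcription factor that marks satellite cells, the stem cells of skeletal muscle. These cells rest in the adult muscle and, when activated, divide as Myf5- and MyoD-expressing progenitors before Myog and the contractile genes come on. A cell in G2 or mitosis has copied its genome and makes cyclin B, the kinases Cdk1, Plk1 and Aurora A and the parts of kinetochore and spindle. Many of these genes share promoter elements, the cell cycle genes homology region (CHR) and CCAAT boxes, through which repressor complexes silence them in resting cells and activators switch them on in G2.

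The promoters of Cdc20, Top2a and Trim59 are printed as examples that hold both elements, and that of Ccnb1 as an example without a CHR word. Ccnb1 is cyclin B1, Cdc20 activates the ubiquitin ligase that ends mitosis, Top2a untangles chromosomes, and Trim59 was among the largest differences outside the cell cycle list. Each line gives the 150 bases before the RefSeq start on GRCm38.p6, 5′ to 3′ on the gene's strand, which is the minus strand for all 4. Capitals mark a CHR (TTTGAA or TTCGAA) or a CCAAT box (CCAAT) on either strand. Cdc20 lies at chr4:118437344-118437493, Top2a at chr11:99024190-99024339, Trim59 at chr3:69044743-69044892 and Ccnb1 at chr13:100786487-100786636.
Cdc20: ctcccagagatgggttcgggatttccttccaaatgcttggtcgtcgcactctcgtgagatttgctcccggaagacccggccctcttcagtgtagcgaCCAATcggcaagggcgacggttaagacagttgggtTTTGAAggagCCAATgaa
Top2a: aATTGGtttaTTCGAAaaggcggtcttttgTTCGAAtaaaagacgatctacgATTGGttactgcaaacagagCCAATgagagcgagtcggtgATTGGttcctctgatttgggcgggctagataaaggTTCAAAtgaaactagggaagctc
Trim59: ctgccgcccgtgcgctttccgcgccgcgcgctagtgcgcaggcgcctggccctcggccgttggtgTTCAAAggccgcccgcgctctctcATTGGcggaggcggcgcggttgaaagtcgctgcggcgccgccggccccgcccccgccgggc
Ccnb1: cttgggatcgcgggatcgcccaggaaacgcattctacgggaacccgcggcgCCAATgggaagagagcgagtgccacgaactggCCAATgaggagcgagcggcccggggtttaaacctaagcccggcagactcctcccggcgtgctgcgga
The Top2a sequence holds 3 CHR words and 4 CCAAT boxes, that of Cdc20 1 and 2, and that of Trim59 1 and 1. The Ccnb1 sequence holds 0 CHR words and 2 CCAAT boxes, with no CHR word in the wider window either. The 150 bases before Aspm, Cenpf, Kif23 and Aurka also hold CCAAT boxes and no CHR word, and each of these genes has a CHR word after its start. In windows from 250 bases before to 50 after the start, a CHR word was found in 70.9% of 86 promoters of the mitotic gene lists (76 of 92 genes matched), against 19.2% of all 32851 promoters of the table. A CCAAT box was found in 66.3% against 37.4%, and both in 53.5% against 7.52%. The 32 promoters of the DNA replication list (29 of 36 genes matched) held a CHR word in 21.9% and a CCAAT box in 65.6%. An E2F word (TTTGGCGC, TTTCGCGC or TTTCCCGC) stood in 43.8% of them, against 9.30% of the mitotic promoters and 1.84% of all. Words of different motifs may overlap, and a match describes these letters only.

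Markers of this and other cell types were looked up. The members were chosen on Pax7 and the 5 mitotic genes of the rule, so the presence of these does not check the label. The rule also limited Myog and Dcn to 1 UMI, so low fibroblast markers do not check it independently. The mitotic gene Top2a, which the members' limits did not use, was also present. The other satellite cell genes of a list of 26 summed with Pax7 to 3075 CPM (UMIs per 1e6 UMIs of the summed cells), against 3065 CPM in the non-cycling cells described next. Cdh15, the muscle cadherin M, stood at 213 CPM, Fgfr4 at 116 CPM and Itga7 at 81.8 CPM. Of the satellite cell markers, Calcr at 0.403 CPM, Cd34 at 0.161 CPM and Chrdl2 at 0 were near absent. Others, such as Notch3 and Heyl, were present, at levels given below. The glial, endothelial, immune, epithelial and adipocyte lists summed to between 0.202 and 2.50 CPM, with the defining markers Ptprc, Kdr, Adipoq and Krt8 at 0. The chondrocyte list summed to 58.1 CPM, of which Sox9 gave 57.5 CPM, and the smooth muscle list to 509 CPM. Fibroblast genes were present: Col3a1 stood at 474 CPM and Prrx1 at 356 CPM, while Lum and Pdgfra, 2 defining markers, stood at 0.202 and 1.82 CPM. Stmn2, a tubulin-binding gene of neurons, reached 182 CPM, while the other 3 genes of the neuron list stood at most at 1.49 CPM.

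The members were compared with 975 cells of the same Pax7 gate that held no UMI of Top2a or Mki67, called non-cycling, and with 513 S-phase cells. These S-phase cells, of the same gate, had at least 10 UMIs of Mcm3, Mcm5, Mcm6, Cdc6, Ccne2, Slbp and Clspn and fewer than 10 of the mitotic genes. The mitotic sum of the members had a median of 24 (quartiles 16 and 37) and a highest value of 136. At the limit, 86 members held 10 or 11 mitotic UMIs and 95 cells just outside held 8 or 9. Summed Top2a was 506 CPM in the former and 525 CPM in the latter. Of the members, 2 also held no Top2a or Mki67 UMI and were counted in both sets. Of the S-phase cells, 30 held no Top2a or Mki67 UMI and are also in the non-cycling set, whose cells reached a mitotic sum of 11 and a sum of 20 over the S-phase genes, so that the name stands for the missing UMIs only.

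**Figure D1:**
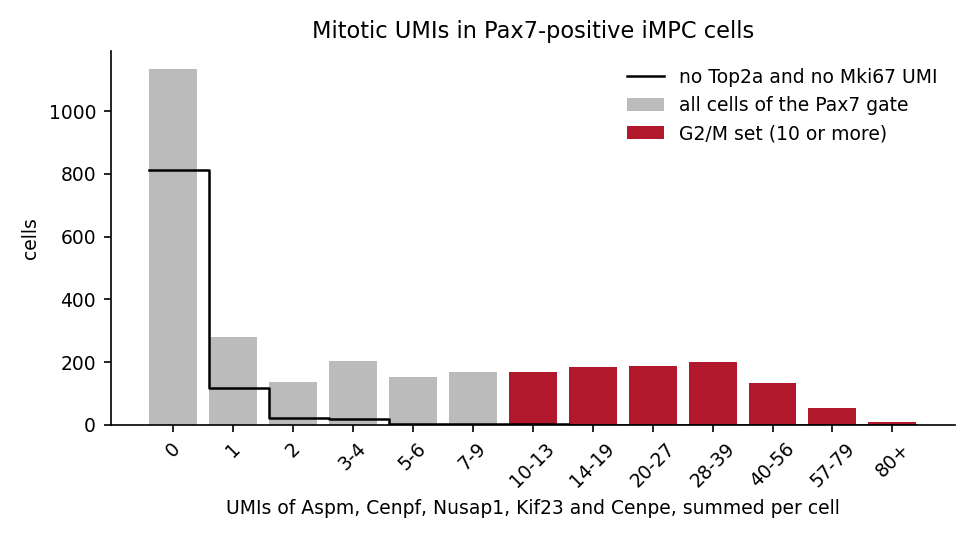
Number of cells of the Pax7 gate (vertical axis) by the sum of UMIs of the 5 mitotic genes (horizontal axis, in unequal bins). Grey bars are all 3009 cells, red bars the 934 members at 10 or more, and the black line the 975 cells with no Top2a and no Mki67 UMI; 1136 cells have a sum of 0, and no gap separates the members from the cells just below 10.

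Depth went with the sets. Members had a median of 25354.5 UMIs per cell, non-cycling cells 14895 and S-phase cells 21392, and at 8000 UMIs per cell the medians were 2543, 2347 and 2500 genes. Ribosomal protein genes took a median of 32.1% of the UMIs of a member and 36.2% of those of a non-cycling cell, and mitochondrial genes 3.22% and 3.75%. A doublet caller marked 36 members (3.85%) and 4 non-cycling cells. The rule counts raw UMIs, and applied to cells thinned to 8000 UMIs it kept 244. The part of depth in the results below was not tested beyond the values given beside them.

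The genes of cell division set the scale, as description only, because the rule chose on them. Cenpf, a kinetochore protein, stood at 513 CPM in the members, 8.16 CPM in non-cycling and 49.8 CPM in S-phase cells. Aspm, which organises spindle poles, stood at 70.7, 0.583 and 8.43 CPM. Nusap1, a microtubule bundler, stood at 161, 0.907 and 23.1 CPM. Kif23, a motor of cytokinesis, stood at 95.9, 1.42 and 14.9 CPM, and Cenpe, a kinetochore motor, at 224, 6.09 and 30.4 CPM. Cdc20, which the rule did not count, stood at 182, 6.80 and 24.9 CPM. Over all 13826 genes with at least 10 UMIs in both sets together, the measure used for every list below, 8.01% were at least 2-fold higher and 9.66% at least 2-fold lower in members than in non-cycling cells. Of the mitotic entry list, 18 of 18 genes were at least 2-fold higher in members than in non-cycling cells (median log2 ratio 3.80). The kinetochore list gave 20 of 21 (4.72), the spindle and cytokinesis list 25 of 26 (5.27) and the chromosome condensation list 13 of 13 (3.41). Zwint, a kinetochore gene at 114 and 128 CPM, and Psrc1, a spindle gene at 66.6 and 66.8 CPM, were the 2 exceptions. Of 14 genes of the anaphase promoting complex list 7 passed 2-fold. The 7 were its activators Cdc20 and Fzr1, the ubiquitin-conjugating enzymes Ube2c and Ube2s, the inhibitor Fbxo5, securin (Pttg1) and separase (Espl1), while the core subunits Anapc1, Anapc11, Anapc13, Cdc16, Cdc23, Cdc26 and Cdc27 had log2 ratios of 0.07 to 0.92. Among all 2900 genes that reached 50 CPM in either set, 7.31% were at least 2-fold higher in the members, 3.66% were at least 2-fold lower, and the median log2 ratio was 0.15.

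Replication genes were lower in the members than in S-phase cells. Mcm6, a subunit of the replicative helicase, stood at 33.6 CPM in members, 39.6 CPM in non-cycling and 135 CPM in S-phase cells, and Mcm5 at 15.9, 9.39 and 72.9 CPM. Ccne2, cyclin E2, stood at 7.79, 2.01 and 52.9 CPM. Of the 36 DNA replication genes, 21 were at least 2-fold higher than in non-cycling cells and 1 was lower, while 25 were at least 2-fold lower than in S-phase cells and 0 higher. Over 13526 genes, 3.37% were at least 2-fold higher and 2.65% lower than in S-phase cells. The S-phase set was chosen on 7 of these genes. The sign of Mcm6 against non-cycling cells depended on the limit, and it stood at a log2 ratio of 0.08 where a sum of 5 sufficed.

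The members were ordered by the summed CPM of Ccnb1, Ccnb2, Cdc20, Plk1 and Aurka, genes that peak late in G2 and mitosis, and were split into 4 sets of 233 or 234 cells, q1 to q4. This is a range and not a set of types, since 82, 158 and 134 members lay within 10% of the 3 limits. Ccnb1, cyclin B1, stood at 87.0, 179, 244 and 364 CPM from q1 to q4, by construction. Mcm6, which the order did not use, stood at 54.2, 32.1, 28.1 and 20.6 CPM, highest in set q1. Marked doublets numbered 23, 11, 2 and 0, most of them in set q1.

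Outside the cell cycle list, the members differed from non-cycling Pax7-positive cells by more genes on the lower than on the higher side. Of 2708 genes that reached 50 CPM in either set, 73 (2.7%) were at least 2-fold higher in the members and 104 (3.84%) at least 2-fold lower. With the median gene ratio set to 0, the counts were 37 and 143. The rule itself drew on this contrast, so these are descriptions. Among cells of 15000 to 30000 UMIs, 656 members and 459 non-cycling cells, 46 genes were higher and 109 lower.

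Several of the highest genes belong to the cell cycle although the list had not held them. Dbf4 (ENSMUSG00000002297, chromosome 5, 8396973 to 8422716), which activates the replication kinase Cdc7, stood at 87.1 CPM (83.4 to 90.8) in members, 4.92 CPM (3.88 to 6.16) in non-cycling cells and 37.4 CPM in S-phase cells. Its log2 ratio over non-cycling cells was 4.14 (3.81 to 4.49). Trim59 (ENSMUSG00000034317, chromosome 3, 69035288 to 69044755), a ubiquitin ligase of the tripartite motif family whose promoter is printed above, stood at 71.8, 9.0 and 35.8 CPM, a log2 ratio of 3.0 (2.75 to 3.26). Terf1 (chromosome 1, 15805646 to 15844052), the telomere-binding protein TRF1, stood at 73.7, 17.3 and 29.0 CPM, a log2 ratio of 2.09 (1.91 to 2.28). These 3 genes were lowest in q1 and highest in q4. Dbf4 stood at 61.3, 83.7, 95.1 and 107 CPM, Trim59 at 44.6, 65.0, 80.3 and 96.7 CPM and Terf1 at 48.6, 65.0, 84.7 and 96.1 CPM. Pmf1, a kinetochore protein, and Cep41, a centrosome protein, had log2 ratios of 1.75 and 1.81. Lsm2, an RNA-binding ring protein of splicing and decay, Lyar, a nucleolar protein, Nxt1, an RNA export factor, Dnajc9, a histone chaperone, and Cmc2, a mitochondrial protein, had log2 ratios of 1.51 to 1.87.

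Nnat, Mest and Cited1 were also higher than in non-cycling cells, with levels in the members near those in S-phase cells. Such nearness was common among genes of at least 50 CPM outside the cell cycle list. Their log2 ratios over S-phase cells had quartiles of -0.08 and 0.13. Nnat (ENSMUSG00000067786, chromosome 2, 157560078 to 157562522), an imprinted gene for a small membrane protein, stood at 406 CPM (398 to 414) in members, 86.4 CPM (81.8 to 91.2) in non-cycling and 423 CPM in S-phase cells. At 8000 UMIs per cell, a Nnat UMI was found in 59.1% of members (55.9% to 62.3%) and in 24.2% of non-cycling cells (21.5% to 27%), and 70.4% and 31.6% without thinning. In 181 cells with at least 10 Dcn UMIs and no Pax7 or Myog UMI (the Dcn-high cells, median 16804 UMIs), which should lack muscle genes, it was 7.18%. From q1 to q4 Nnat stood at 400, 524, 463 and 236 CPM, lowest where Ccnb1 was highest. Mest, another imprinted gene, stood at 595 CPM in members, 243 CPM in non-cycling and 612 CPM in S-phase cells, a log2 ratio over non-cycling cells of 1.29 (1.24 to 1.35). Of the 12 genes measured of an imprinted list that did not hold Nnat, Mest alone was at least 2-fold higher, and 0 were as much lower. Cited1, a transcriptional co-activator, stood at 71.6, 21.2 and 80.9 CPM, and at 47.5 CPM in q4.

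**Figure D2:**
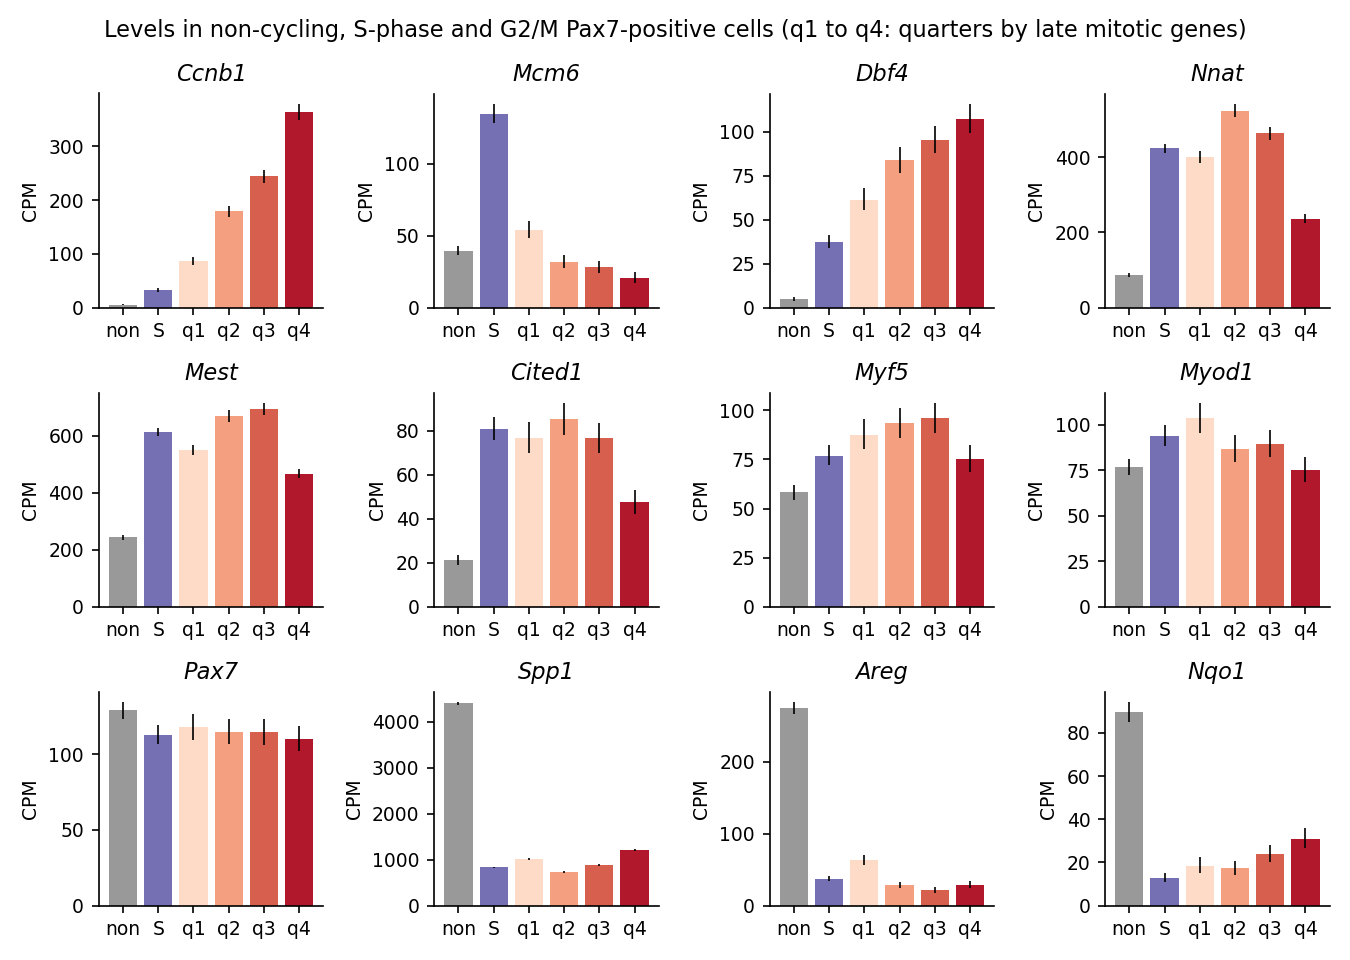
Summed CPM (vertical axes, each from 0) of 12 genes in non-cycling cells (grey), S-phase cells (violet) and the 4 sets of G2/M members ordered by late mitotic genes (q1 to q4, red). Bars are CPM and error bars 95% Poisson intervals; Ccnb1 and Dbf4 are highest in q4, Nnat is high from S phase to q3 and lower in q4, and Spp1, Areg and Nqo1 are highest in non-cycling cells.

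Of 5 myogenic regulators measured, 1, Myf6, was at least 2-fold higher in the members and 0 lower (median log2 ratio 0.20), and the gate itself limits Pax7 and Myog in both sets. Myf5 (ENSMUSG00000000435, chromosome 10, 107482908 to 107486134), the earliest myogenic regulator of satellite cells, stood at 88.1 CPM (84.5 to 91.9) in members, 58.3 CPM (54.5 to 62.2) in non-cycling and 77.0 CPM in S-phase cells, a log2 ratio of 0.60 (0.48 to 0.71). Myod1, which activated progenitors share with early myoblasts, stood at 88.7, 77.0 and 93.9 CPM, a log2 ratio of 0.20 (0.10 to 0.31). Transcripts of the cells' own Myod1 and of an introduced copy cannot be told apart. At 8000 UMIs a Myf5 UMI was found in 43.9% of members (40.7% to 47.1%) and 30.8% of non-cycling cells (27.9% to 33.8%), against 3.31% of the Dcn-high cells. For Myod1 the shares were 40.6%, 35.1% and 4.42%. Without thinning they were 72.8% and 45.2% for Myf5 and 64.7% and 47.8% for Myod1 in members and non-cycling cells.

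UMIs of both genes were found in 16.5% of thinned members (14.2% to 19%), of Myf5 alone in 27.4%, of Myod1 alone in 24.1% and of neither in 32.0%. In non-cycling cells these shares were 12.1%, 18.7%, 23.0% and 46.3%. Pax7, on which all sets were chosen, stood at 114 CPM in members, 129 CPM in non-cycling and 113 CPM in S-phase cells. The lower Pax7 value turned round, to a log2 ratio of 0.17, among cells of 15000 to 30000 UMIs. Pax7 rested on 1 UMI in 27.7% of members and 46.1% of non-cycling cells.

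Of 25 satellite cell genes measured, 2 were at least 2-fold higher in members and 3 at least 2-fold lower, beside 8.01% and 9.66% of all genes. The median log2 ratio was -0.11, which became 0.09 among cells of 15000 to 30000 UMIs. Msc, a repressor-type myogenic factor (MyoR), stood at 53.4 and 20.01 CPM in members and non-cycling cells, and the other higher gene, Calcr, rested on under 1 CPM. Fgfr1, a receptor for fibroblast growth factors, stood at 51.2 and 126 CPM, while Fgfr4, the receptor of muscle progenitors, stood at 116 and 74.1 CPM. Sdc3, a cell surface proteoglycan, stood at 17.9 and 48.9 CPM. Cd34, with the lowest log2 ratio of the list (-3.38), rested on under 1 CPM in members. In the Notch pathway, which keeps satellite cells undifferentiated, 3 of 17 genes were at least 2-fold higher and 0 lower. The receptors Notch1 and Notch3 stood at 99.8 and 74.6 CPM in members and 98.7 and 54.9 CPM in non-cycling cells, and the targets Hes1 and Heyl at 137 and 39.2 CPM against 143 and 42.2 CPM. The 3 higher genes were of low level: the modifier Lfng stood at 7.26 and 1.75 CPM, the feedback gene Nrarp at 11.8 and 5.12 CPM, and Notch4 at 0.524 and 0.0648 CPM.

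Differentiation genes did not stand higher as a group. None of 13 committed myoblast genes passed 2-fold either way (median log2 ratio -0.15), and 1 of 15 myocyte genes did, Ckm, at 4.60 and 12.3 CPM (median -0.61). The myocyte list summed to 1781 CPM in members and 2238 CPM in non-cycling cells. Among cells with at least 2 Pax7 UMIs the order of the sums turned, to 1770 and 1715 CPM, with a median of -0.24. The gate limits Myog to 1 UMI, a stricter limit in the deeper members (median 25354.5 against 14895 UMIs). With no Myog and no Dcn UMI allowed, the myocyte list summed to 1696 and 1945 CPM (median -0.40). The committed myoblast list then had a median of -0.02. The part of the Myog limit in these values was not tested further. Transcripts of differentiating muscle also occur in the free RNA of this library. Myog, a committed myoblast marker that the gate limits, stood at 575 CPM in barcodes of 200 to 600 UMIs. With a free RNA profile from barcodes of fewer UMIs subtracted at 2%, the myocyte list summed to 1279 and 1745 CPM (median -0.92). The part of free RNA in these low levels was not tested further. Myf6, a regulator of late muscle differentiation, stood at 7.58 and 2.14 CPM.

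Among cyclins and inhibitors of G1, 3 of 23 genes were at least 2-fold higher in members and 2 lower. Cdkn2d (p19, an inhibitor of Cdk4 and Cdk6) stood at 93.6 CPM in members, 25.2 CPM in non-cycling and 38.0 CPM in S-phase cells. Cdkn2c, of the same family, stood at 30.9 and 13 CPM in members and non-cycling cells, whereas Cdkn2b, another member, stood at 35.8 and 106 CPM. Ccnd2, cyclin D2, stood at 58.5 and 144 CPM, Ccnd1 at 223 and 263 CPM and Ccnd3 at 389 and 294 CPM. The inhibitor Cdkn1a (p21) stood at 331 and 482 CPM, with a log2 ratio of -0.54 (-0.59 to -0.50). Cdkn1b (p27) stood at 77.8 and 75.6 CPM. Cdkn1c (p57) stood at 219 and 241 CPM, and its log2 ratio of -0.14 became 0.64 among cells of 15000 to 30000 UMIs.

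The 12 largest ratios on the lower side were those of Cck, Scg2, Areg, Gsta4, Id4, Spp1, Crabp1, Tshz2, Ecm1, Fam129a, Nqo1 and Col6a2, which include secreted products and genes of other kinds. Spp1 (ENSMUSG00000029304, chromosome 5, 104435118 to 104441050), osteopontin, stood at 959 CPM (947 to 971) in members, 4405 CPM in non-cycling and 835 CPM in S-phase cells, a log2 ratio over non-cycling cells of -2.20 (-2.22 to -2.18). Areg (chromosome 5, 91139599 to 91148432), a ligand of the EGF receptor, stood at 35.4, 275 and 37.0 CPM, a log2 ratio of -2.96 (-3.06 to -2.85). At 8000 UMIs an Areg UMI was found in 8.46% of members and 30.9% of non-cycling cells, and 20.4% and 35.9% without thinning. Cck, the peptide cholecystokinin, stood at 14.2, 183 and 8.60 CPM and the 5% of non-cycling cells with the most of it held 93.6% of its UMIs. Scg2, a secretory granule protein, stood at 8.39, 74.7 and 14.4 CPM. Crabp1, a retinoic acid binding protein, stood at 36.5, 153 and 25.1 CPM, Id4, an inhibitor of basic helix-loop-helix factors, at 10.3, 54.8 and 4.52 CPM, and the matrix protein Ecm1 at 64.8, 263 and 56.2 CPM. Tshz2, a zinc finger homeobox gene, stood at 12.5, 51.2 and 8.25 CPM, and Fam129a at 14.2, 57.5 and 14.9 CPM. Id1, of the same family as Id4, went the other way, at 242, 120 and 236 CPM.

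Fibroblast markers moved with these genes, and their part in the lower levels was not tested. The fibroblast list summed to 1260 CPM in members, 2232 CPM in non-cycling and 1083 CPM in S-phase cells, 5 of its 11 measured genes were at least 2-fold lower in members than in non-cycling cells, and its median log2 ratio was -0.74. The gate limits Dcn, a gene of this list, to 1 UMI, a stricter limit in the deeper members (median 25354.5 against 14895 UMIs). With no Myog and no Dcn UMI allowed, the sums were 1263 CPM in members and 2217 CPM in non-cycling cells. The part of the gate was not tested further. The Dcn-high cells held more of the same products, with Spp1 at 13438 CPM, Areg at 1484 CPM, Cck at 1218 CPM and Crabp1 at 4034 CPM, but Scg2 at 69.1 CPM and Id4 at 49.4 CPM lay at the level of non-cycling cells. With cells that held any UMI of Dcn, Lum or Pdgfra left out, 875 members and 862 non-cycling cells remained, and 66 genes were higher and 85 lower. In barcodes of 200 to 600 UMIs, which hold mostly free RNA, Spp1 stood at 659 CPM and Areg at 37.4 CPM, and the part of free RNA in the members' levels was not tested. The direction of each of the 24 largest differences was kept in all 14 settings, the main one included, in which Spp1 ranged from -2.41 to -2.06, Areg from -3.11 to -2.72 and Cck from -5.17 to -2.86.

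**Figure D3:**
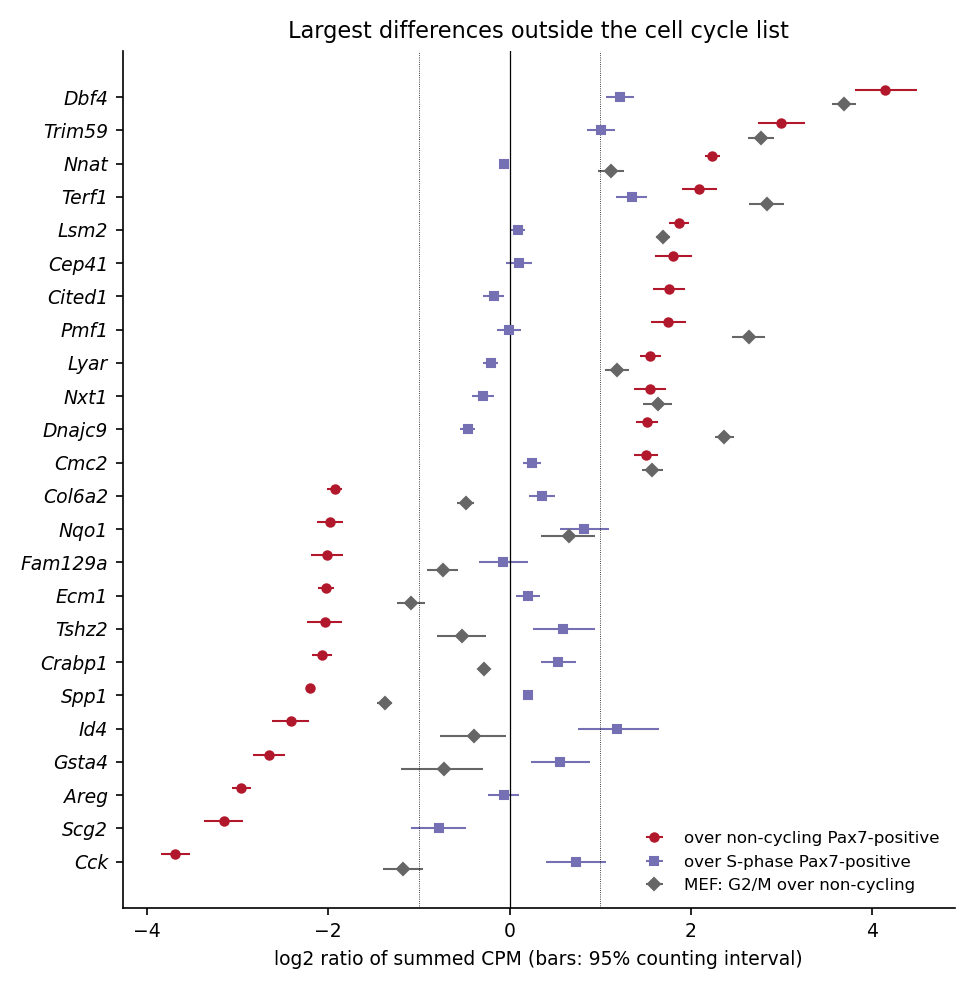
The 12 genes with the largest log2 ratios in each direction between G2/M and non-cycling Pax7-positive cells, outside the cell cycle list. Red circles are the ratio over non-cycling cells, violet squares over S-phase cells and grey diamonds the ratio of G2/M over non-cycling MEF cells (only where 1 of the MEF sets reached 10 CPM), with 95% counting intervals; Dbf4, Trim59 and Terf1 lie at or above 1.0 against S-phase cells too, while Spp1 lies at 0.20 and Areg at -0.06 against them.

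Of 28 matrix and basement membrane genes, 10 were at least 2-fold lower in the members and 0 as much higher, with a median log2 ratio of -0.82 (-0.97 to -0.77 over 14 settings). The fibroblast list, whose gene Dcn the gate limits, moved the same way (1260 against 2232 CPM, 5 of 11 genes at least 2-fold lower). Fibroblasts also make collagen VI and fibronectin, and the part of fibroblast RNA in the matrix values was not tested. Collagen VI was lower in 3 chains: Col6a1 stood at 170 and 573 CPM, Col6a2 at 63.8 and 243 CPM and Col6a3 at 59.5 and 173 CPM. The basement membrane linker Nid1 stood at 61.7 and 192 CPM and fibronectin, Fn1, at 203 and 539 CPM. Col4a1, the main basement membrane collagen, differed less, at 316 and 421 CPM, and Mgp, an inhibitor of calcification, stood higher, at 1686 and 1310.0 CPM. Against S-phase cells the list had a median of 0.15, with 0 of 28 past 2-fold, and the fibroblast list a median of 0.28, with 2 of 11 at least 2-fold higher. The larger of these 2 ratios, 2.39, was that of Pdgfra, whose low level in members is given above.

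Of 16 antioxidant genes 6 were at least 2-fold lower in the members and 0 higher (median -0.59), while 4 had a ratio above 0. Nqo1 (chromosome 8, 107388225 to 107403206), a quinone reductase, stood at 22.8 CPM in members, 89.6 CPM in non-cycling and 12.9 CPM in S-phase cells, Hmox1, haem oxygenase, at 27 and 93.6 CPM in members and non-cycling cells, and Gsta4, a glutathione transferase, at 13.2 and 82.5 CPM. The peroxidase Prdx1 stood at 723 and 717 CPM and the dismutase Sod1 at 140 and 117 CPM. Of 14 interferon-related genes 7 were at least 2-fold lower, most of them under 10 CPM, the exception being Ifitm3 at 372 and 782 CPM. Of 22 immediate early genes 6 were at least 2-fold lower (median -0.55), among them Klf2 at 7.10 and 23.2 CPM. Fos, at 66.5 and 88.8 CPM, was lower by less than 2-fold. Of 18 lysosomal genes 2 were at least 2-fold lower, the proteases Ctsd, at 83.4 and 197 CPM, and Ctsl, at 245 and 565 CPM. The integrin Itga4, a receptor for VCAM1, stood higher, at 56.4 and 25.1 CPM, while 5 of 21 adhesion genes were at least 2-fold lower, among them Cdh11 at 37.4 and 101 CPM and Cd9 at 119 and 271 CPM. Against S-phase cells the medians were -0.02 (antioxidant), 0.01 (interferon), -0.01 (immediate early), 0.05 (lysosome) and 0.12 (adhesion). There 1 interferon gene was at least 2-fold lower, and 0 genes of the other 4 lists passed 2-fold.

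Lists of general metabolism held few genes past 2-fold, though 2 of them shifted slightly in most genes. Ribosomal protein genes had a median log2 ratio of -0.16 over 82 genes, 73 of them below 0, and summed to 319769 and 356968 CPM. Oxidative phosphorylation genes had a median of 0.24 over 95, 80 of them above 0. Scaled by the median of gene ratios, the 2 medians were -0.30 and 0.09. In these lists 0 and 2 genes were at least 2-fold lower and 0 higher. Glycolysis genes (16), cholesterol synthesis genes (18, median 0.18) and genes of the mitochondrial genome (13, median -0.18) had 0 past 2-fold. Of 18 growth factor receptor and feedback genes 4 were at least 2-fold lower (median -0.26). Chaperones had 1 of 18 genes past 2-fold, Hsph1, at 42.2 and 18.5 CPM. The 11 tubulins gave 4 past 2-fold, all higher, led by Tubb4b at 434 and 99.2 CPM and Tuba1b at 570 and 174 CPM. Nuclear envelope and transport genes gave 9 of 17, with Lmnb1 (lamin B1) at 135 and 15.2 CPM but Lmna (lamin A and C) at 435 and 329 CPM.

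**Figure D4:**
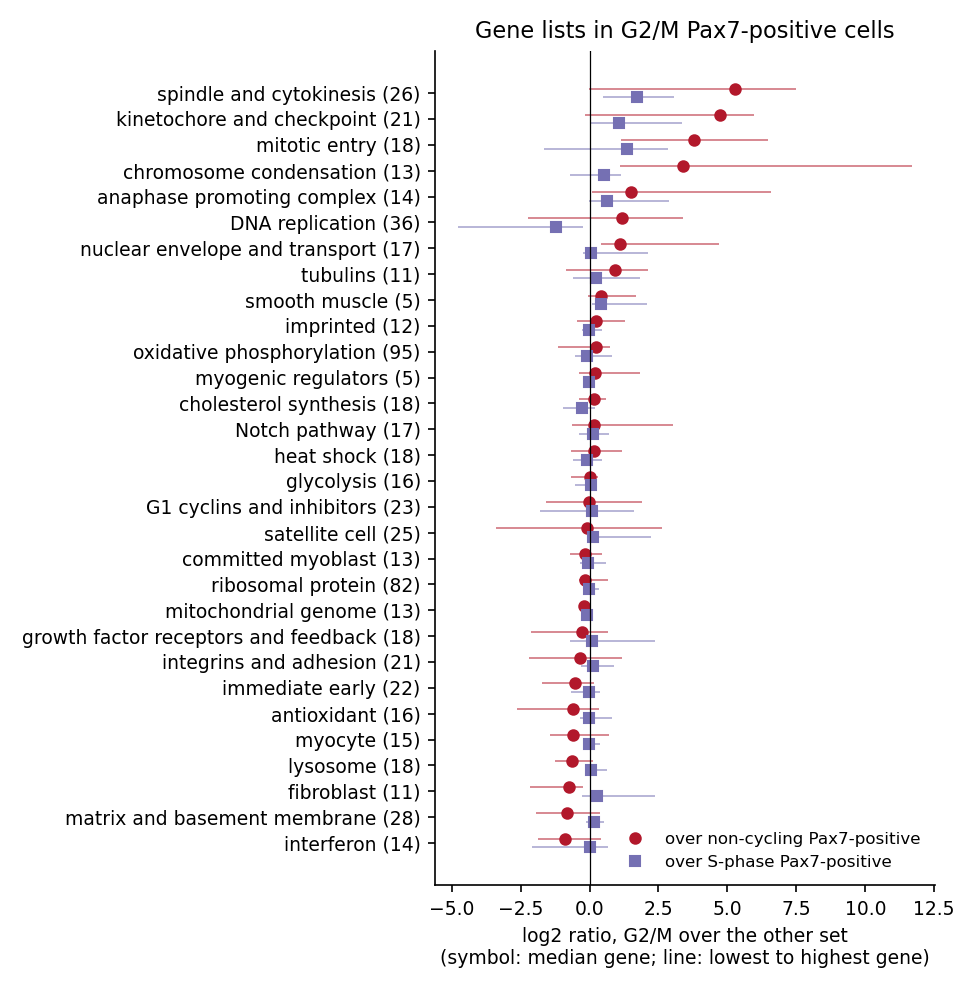
Median log2 ratio (symbol) and lowest to highest gene (line) of each list with at least 5 measured genes (number in brackets), for members over non-cycling cells (red circles) and over S-phase cells (violet squares). Mitotic lists lie above 1 against non-cycling cells, matrix, fibroblast, interferon and lysosome lists lie below 0, and against S-phase cells the lists outside the cell cycle and tubulin groups run from -0.29 (cholesterol synthesis) to 0.42 (smooth muscle).

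Against S-phase cells of the same gate, the members differed in very few genes outside the cell cycle list. Of 2553 genes, 5 (0.196%) were at least 2-fold higher and 1 (0.0392%) at least 2-fold lower, and the quartiles of all log2 ratios were -0.08 and 0.13. Higher were Terf1 (1.35, 1.18 to 1.52), Dbf4 (1.22), Trim59 (1.0), Pnrc2 and Emp1. Pnrc2, which takes part in mRNA decay, stood at 62.0 CPM in members, 30.1 CPM in S-phase and 37.9 CPM in non-cycling cells. Emp1, a membrane protein, stood at 82.3, 40.1 and 94.3 CPM, so its S-phase level was the lowest of the 3, and from q1 to q4 it stood at 54.5, 69.4, 87.5 and 117 CPM. Of 5 smooth muscle genes 2 were at least 2-fold higher than in S-phase cells (median 0.42), Myh11 at 2.74 and 1.04 CPM and Cnn1 at 1.86 and 0.434 CPM. Among the genes that reached 50 CPM, the lower gene was Arl6ip6, at 44.6, 98.4 and 43.5 CPM. Hat1, a histone acetyltransferase, Tfdp1, the partner of E2F factors, and Nsd2, a histone methyltransferase, had log2 ratios of -0.91, -0.75 and -0.69. The members and both comparison sets share their cells or their gate, so their contrasts are not independent of each other.

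The MEF library, whose cells the rule did not use, offers a contrast of G2/M cells in another cell type. By the same mitotic sum 224 MEF cells were G2/M and 5068 held no Top2a or Mki67 UMI, with medians of 27305 and 18270 UMIs. No Pax7, Myog or Dcn limit applied to MEF cells, nor the minimum of 8036 UMIs. Non-cycling MEF cells went down to 701 UMIs, so the 2 contrasts differ in more than cell type. Of 3017 genes outside the cell cycle list that reached 50 CPM, 94 (3.12%) were at least 2-fold higher in G2/M MEF cells and 25 (0.829%) at least 2-fold lower. Of the 73 genes higher in the iMPC members, 68 were measured in MEF, 66 had a ratio above 0 there and 43 were at least 2-fold higher, with a median of 1.19. Of the 104 lower genes, 93 were measured, 73 had a ratio below 0 and 11 were at least 2-fold lower, with a median of -0.41. Over all 2620 tested genes that were measured in MEF, 59.0% had a ratio above 0 and 41.0% below.

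Single genes differed between the contrasts in size. Dbf4 stood at 144 CPM in G2/M and 11.2 CPM in non-cycling MEF cells, with a log2 ratio of 3.69 (3.56 to 3.82) beside 4.14 in iMPC. Nnat reached 70.7 CPM in G2/M and 32.5 CPM in non-cycling MEF cells, with 1.12 as its log2 ratio (0.98 to 1.26) beside 2.23. Spp1 gave -1.38 (-1.46 to -1.29) beside -2.20, and the matrix list a median of -0.43 beside -0.82. Genes whose MEF ratio lay within 0.5 of 0 included Itga4 (-0.38 beside 1.17), Fhl1, a muscle LIM protein (0.36 beside 1.17), and Id1 (-0.08 beside 1.01) on the higher side. On the lower side they included Id4 (-0.39 beside -2.41), Crabp1 (-0.28 beside -2.07), Col6a2 (-0.49 beside -1.93), Ramp3, a receptor co-factor (-0.36 beside -1.88), and the chemokine Cxcl14 (-0.42 beside -1.84). Whether these differences exceed the spread between cultures was not tested, with 1 culture each.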

How the data were processed

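The authors deposited UMI counts, whole and not normalized, 1 matrix for each library. The submitters' processing notes name Cell Ranger 4.0, Seurat 3.2.3 and GRCm38.p6. The growth text of the MEF sample repeats that of iMPC, so its own treatment label was used. The annotation is not given in the sources used here, nor how the MEF barcodes were selected. The authors' counts were used as deposited, over 26100 shared genes. Of these, 25989 identifiers were found in GENCODE M21 (GRCm38), which gave positions.

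The iMPC library held 282903287 UMIs and the MEF library 118541302. An iMPC barcode was a cell at 8036 UMIs (10% of the 99th percentile of the top 10000). Cells with under 500 genes or over 20% mitochondrial UMIs were removed, leaving 9349 and 6013. The kept libraries shared 16 barcodes. Scrublet (in scanpy 1.11.5) marked 418 iMPC cells (4.47%) and 0 MEF cells, where the 289 highest scores (4.81%) were left out in the doublet alternative. Doublets were otherwise kept.

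UMIs were summed per set and divided by its total (CPM). Intervals are exact Poisson for sums, exact conditional for ratios and Clopper-Pearson for shares, which were taken after thinning cells to 8000 UMIs. A gene with 0 UMIs on 1 side was set to a floor of 3 counts. List members needed 10 UMIs over both sets to count as measured. Genes named were the 12 largest ratios each way outside the cell cycle list (552 genes in the files) with at least 50 CPM, the 8 largest with a MEF ratio within 0.5 of 0 and 10 CPM in MEF, the 6 largest against S phase, the 3 largest of each list described and a fixed set of regulators. Other genes named from the lists, and the Dcn-high set, were chosen after their values were seen. Members and all 37 lists were chosen with earlier results of these data known. Strandedness was not given, so overlapping genes are uncertain. Ratios were checked on simulated counts. Python 3.11.15, numpy 2.4.6, scipy 1.17.1, pandas 2.3.3 and matplotlib 3.10.9 were used. Promoters came from a RefSeq table for GRCm38.p6.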

Additional observations from a re-analysis of the deposited data

Results flagged for a closer look

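Nqo1, the quinone reductase, had log2 ratios of opposite sign in the 2 cultures. In iMPC it was -1.98 (-2.12 to -1.84) between G2/M and non-cycling Pax7-positive cells, and in MEF it was 0.65 (0.35 to 0.94) between G2/M and non-cycling cells, at 16.6 and 10.6 CPM. The difference between the cultures was not tested, since each had 1 library.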

How the results depend on the processing

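Of the alternatives to the main counts, 47 left a count within 1.5 times its value and 19 moved it. Of those to single genes and shares, 735 stayed within the counting interval, 176 moved and 3 turned direction, where a turn is counted only for a ratio whose main interval leaves out 0. The members numbered 582 at a mitotic sum of 20, 550 with no Myog and Dcn UMI and 244 with the rule on thinned cells. Against non-cycling cells, higher genes numbered 46 among cells of 15000 to 30000 UMIs and 37 scaled by the median of gene ratios. Lower genes numbered 177 with a total that left out mitochondrial, ribosomal protein and cell cycle genes, beside 104 higher. The smaller total raised every CPM, with the fibroblast list in members at 2097 CPM in place of 1260. The same minimum of 50 CPM therefore admitted more genes in this setting. At 10 CPM, 264 genes were higher and 372 lower, and at 10 UMIs 755 and 1332. Against S-phase cells, 2 genes were higher at a mitotic sum of 5, and 2 lower at a sum of 20 and with thinned cells. At 10 CPM 33 were higher and 28 lower. In MEF, lower genes numbered 40 at a sum of 20 and 41 with thinned cells, and at 10 CPM 357 were higher and 106 lower. Log2 ratios that turned were those of Mcm6 (0.083 at a sum of 5), Pax7 (0.17) and Cdkn1c (0.64), both among cells of 15000 to 30000 UMIs. Ratios whose main interval holds 0 also changed sign: Cdc6 from -0.21 to 0.41 at a sum of 5, and Cdkn1b from 0.04 to -0.02 at a sum of 5 and to -0.10 scaled by the median of gene ratios. The causes were not tested, other than that lower minimums, or a smaller total at the same minimum, admit more genes. Leaving out cells with Dcn, Lum or Pdgfra UMIs and the shares without thinning were added after seeing the data. No paired analysis was possible because each group has 1 library. For the same reason no library could be left out.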
